A study of Mus musculus with 9 samples.

Results

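The genes described here are 8 markers of the erythroid lineage, chosen by name from the 23337 genes counted in each library: the transcription factors Klf1 and Gata1, the erythropoietin receptor Epor, the membrane proteins Slc4a1, Ank1, Ermap and Rhag, and the ring finger protein Trim10. Red cells form in the marrow from erythroblasts, which depend on erythropoietin bound by Epor and on the Gata1 and Klf1 proteins, DNA-binding factors that switch on globin, heme and membrane genes. As erythroblasts mature they build a membrane in which band 3, the product of Slc4a1, is held to the spectrin skeleton by ankyrin, the product of Ank1. Erythroblasts lie around macrophages in erythroblastic islands, and they are not usually counted among CD11b+ cells, which are granulocytes, monocytes and macrophages.

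RNA came from CD11b+ bone marrow cells of 9 male C57BL/6 mice, obtained at 3 to 6 weeks of age, with 3 mice in each of 3 groups and 1 library per mouse. PBS mice received vehicle by tail vein on days 1, 3 and 5. EnzR EV mice received, on the same days, 10 µg of protein of extracellular vesicles (EVs) from CWR-R1 cells, an established human prostate cancer line made resistant to the anti-androgen enzalutamide (EnzR). EnzR EV + HDL NP mice received these EVs and also, on days 0, 2 and 4, HDL NPs, synthetic particles with a gold core that mimic high-density lipoprotein and take cholesterol out of cells. The concentration of the HDL NPs differs between the labels and the study's methods. No group received HDL NPs alone, and no group received EVs of non-cancer cells, so HDL NPs were compared only in the presence of EnzR EVs. Femur and tibia marrow was taken on the day after the last injection, red blood cells were lysed, and CD11b+ cells were then picked by positive selection.

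Total counts were 6006087 to 16381679 in the PBS group, 2575776 to 18110561 in the EnzR EV group. With HDL NPs they lay between 13231038 and 16611934. Mouse 1 of the EnzR EV group gave the smallest library, with 42.7% of its counts on the ribosomal RNA gene Rn45s, and mouse 1 of the PBS group had 20.3% of its counts there. The share was 14.2% in mouse 3 of the EnzR EV group and between 0.657% and 2.87% in the other 6 libraries. Itgam, which encodes CD11b itself, stood at 1662 ± 245 CPM (reads relative to the library size, scaled by TMM factors, mean ± SD, n = 3) in PBS mice, 1680 ± 210 in EnzR EV mice and 1812 ± 215 in EnzR EV + HDL NP mice. S100a8, a neutrophil gene and one of the most abundant, stood at 19618 ± 11591, 13600.5 ± 15583 and 26219 ± 12978 CPM in the same order.

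All 8 genes were detected, and all 8 passed the filter on low counts that kept 12553 genes for testing. They were scarce in these cells: together they held 39.8 to 55.7 CPM in PBS mice, 17.2 to 54.9 CPM in EnzR EV mice and 21.7 to 46.9 CPM in EnzR EV + HDL NP mice. In reads this was 272 to 973, 100 to 324 and 311 to 786 per library. Single values rest on 2 reads (Rhag, mouse 1 of the EnzR EV group) to 553 reads (Slc4a1, mouse 3 of the PBS group). A count of 3 reads, below which no level is read, equals 0.160 CPM in the deepest library and 1.65 CPM in the smallest one. As these are bulk samples, fewer erythroid cells and less RNA per erythroid cell cannot be told apart in any value below.

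Per kilobase of exon, the order of levels in PBS mice began with Slc4a1 at 5.52 ± 1.08 CPM per kilobase (SD, n = 3), followed by Gata1 at 1.93 ± 0.741, Klf1 at 1.29 ± 0.563 and Trim10 at 1.08 ± 0.664. Ermap at 0.770 ± 0.311, Rhag at 0.699 ± 0.157, Epor at 0.670 ± 0.299 and Ank1 at 0.343 ± 0.0442 CPM per kilobase came after them. Slc4a1 stood clear of all others by more than the SDs, while from Gata1 down to Epor each gene lay within 1 SD of the next. Slc4a1 and Gata1 also came first in EnzR EV mice, at 3.47 ± 2.32 and 1.72 ± 0.947 CPM per kilobase, followed by Trim10 at 1.24 ± 0.864 and Epor at 1.19 ± 0.942. With HDL NPs the order began with Slc4a1 at 3.40 ± 1.98, Gata1 at 2.12 ± 0.427 and Trim10 at 0.891 ± 0.407 CPM per kilobase, and Epor at 0.354 ± 0.214 came after Rhag at 0.372 ± 0.236. Ank1 was the lowest per kilobase in all 3 groups, though its exons of several transcripts were summed into 1 length. For scale, the CD11b gene Itgam stood at 331 ± 48.8 CPM per kilobase in PBS mice.

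**Figure D1:**
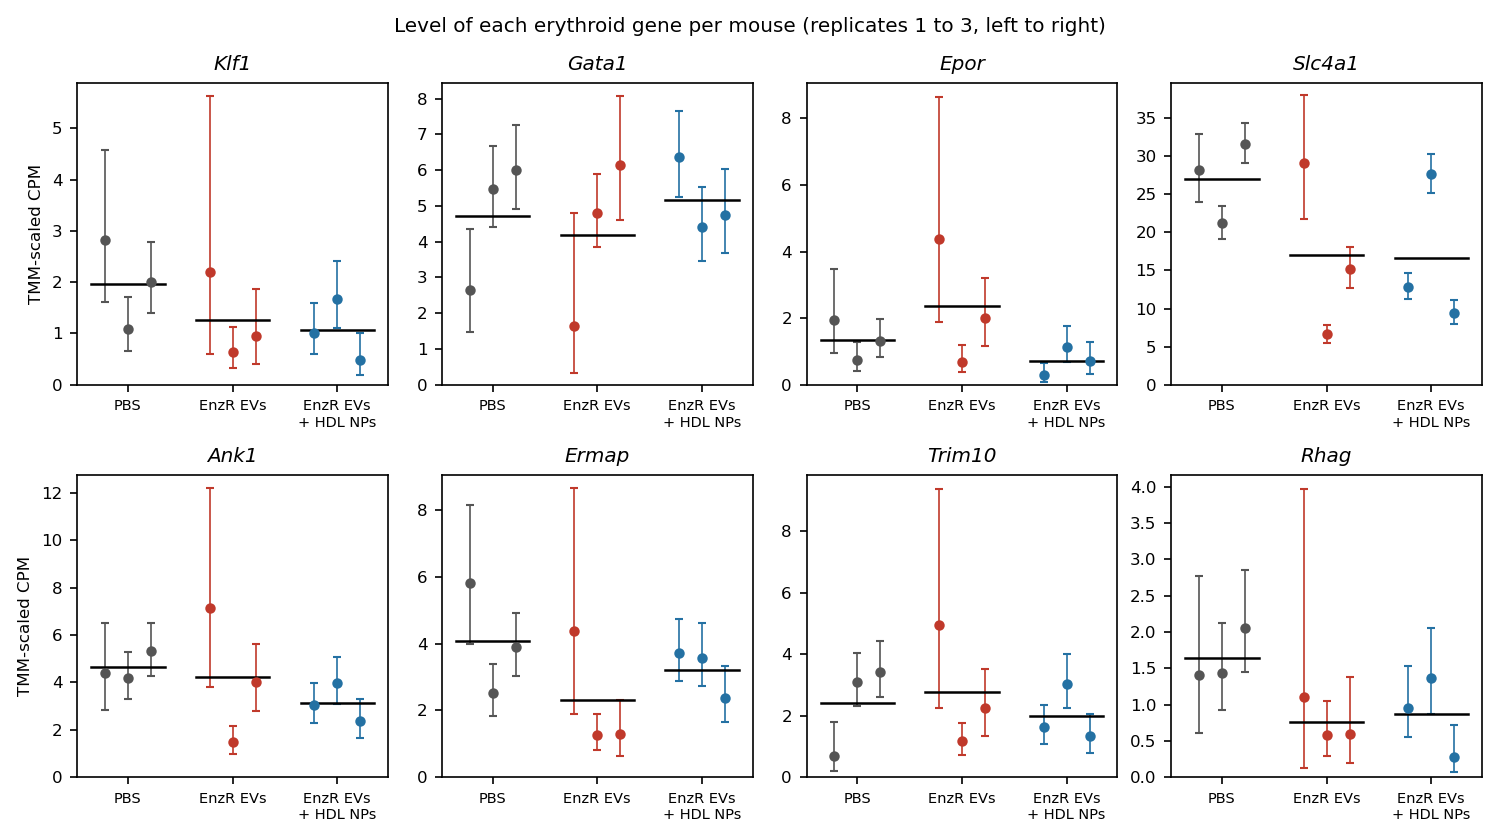
Level of each of the 8 erythroid genes in every mouse, as TMM-scaled CPM on a linear axis, 1 panel per gene with its own scale. Points are mice 1 to 3 of each group from left to right, bars are exact 95% Poisson intervals of the read count and black lines are group means. Mouse 1 of the EnzR EV group has the widest intervals and the highest Epor, Ank1 and Trim10 values, 4.39, 7.13 and 4.94 CPM, and the groups overlap in most panels.

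No difference in any of the 8 genes passed an adjusted p of 0.05 in any of the 3 comparisons. The background was also 0%: edgeR's quasi-likelihood test called 0 of 12553 genes in each comparison. DESeq2 called 0 of the 8 genes as well, against 0.0876% of all genes between EnzR EVs and PBS, 0.0637% between EnzR EVs + HDL NPs and PBS, and 0.00797% between EnzR EVs + HDL NPs and EnzR EVs. The values below therefore describe 9 mice, and no gene is said to have risen or fallen.

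Klf1 is the zinc finger factor that drives adult globin and many red cell membrane genes through CACCC boxes, short motifs in their promoters. It lies on mm10 chromosome 8, plus strand, at 84901928 to 84905291. Klf1 stood at 2.82, 1.09 and 2.00 CPM in PBS mice, 2.19, 0.639 and 0.946 CPM in EnzR EV mice, and 1.01, 1.67 and 0.489 CPM in EnzR EV + HDL NP mice. The highest mouse was a PBS mouse and the lowest an EnzR EV + HDL NP mouse, and the groups overlapped throughout. The log2 fold change was −0.96 (SE 0.634, edgeR adjusted p = 0.928) for EnzR EVs against PBS and −0.82 (SE 0.557, edgeR adjusted p = 1.00) for EnzR EVs + HDL NPs against PBS. Between the groups given EnzR EVs it was 0.14 (SE 0.630, edgeR adjusted p = 0.926), while the mean CPM went the other way, 1.06 ± 0.591 with HDL NPs against 1.26 ± 0.824 with EnzR EVs alone (SD, n = 3). The fit gives deeper libraries more weight than the plain mean does, and no direction is read from Klf1 here.

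Gata1, the factor that binds GATA motifs and sets the erythroid program, is also used by megakaryocytes, eosinophils, basophils and mast cells. It lies on chromosome X, minus strand, at 7959260 to 7978071. Its levels were 2.64, 5.46 and 6.01 CPM in PBS mice, 1.65, 4.79 and 6.15 CPM in EnzR EV mice, and 6.36, 4.41 and 4.75 CPM in EnzR EV + HDL NP mice. The low values were those of mouse 1 of the PBS and EnzR EV groups, the libraries with the most Rn45s, and the value of 1.65 CPM rests on 3 reads (exact 95% Poisson interval 0.339 to 4.81 CPM). The log2 fold changes were −0.06 (SE 0.403), 0.10 (SE 0.384) and 0.16 (SE 0.399) in the order of comparisons given above, with edgeR adjusted p = 0.989, 1.00 and 0.863. With 1.96 SE on either side, the interval ran from −0.85 to 0.73 for EnzR EVs against PBS. Epx, the eosinophil peroxidase gene, was also lowest in mouse 1 of these groups, at 201, 433 and 505 CPM in PBS mice and 188, 372 and 481 CPM in EnzR EV mice, and stood at 582, 222 and 301 CPM in EnzR EV + HDL NP mice. Of the 16 eosinophil, basophil and mast cell genes, 10 were lowest in mouse 1 of both the PBS and the EnzR EV group, Epx among them, and 6 were not. The summed level of the 16 genes was 2791, 3243 and 3602 CPM in PBS mice and 3787, 3137 and 4109 CPM in EnzR EV mice, most of it from Prg2, for eosinophil major basic protein, which was not lowest in mouse 1. With HDL NPs the sum was 4312, 2118 and 2318 CPM. The part of these cells in the Gata1 values was not tested.

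Epor, the receptor through which erythropoietin activates Jak2 and Stat5, lies on chromosome 9, minus strand, at 21958897 to 21963506. It stood at 1.94, 0.748 and 1.32 CPM in PBS mice, 4.39, 0.692 and 2.01 CPM in EnzR EV mice, and 0.281, 1.13 and 0.699 CPM in EnzR EV + HDL NP mice. Its fitted level was higher in EnzR EV than in PBS mice by 0.54 on the log2 scale (SE 0.730, edgeR adjusted p = 0.932), and the value of 4.39 CPM rests on 8 reads (exact Poisson interval 1.90 to 8.65 CPM). Against EnzR EVs, EnzR EVs + HDL NPs gave a log2 fold change of −1.38 (SE 0.737), the largest in size among the 8 genes in that comparison. It had an unadjusted p of 0.0898 and an adjusted p of 0.474 by edgeR, and 0.0394 and 0.356 by DESeq2. At an unadjusted p under 0.05, DESeq2 thus counted 1 of the 8 genes, where it counted 13.4% of all genes tested. By edgeR 0 of the 8 were counted at that p, beside 6.97% of all genes that were lower and 3.58% that were higher. Between PBS and EnzR EV + HDL NP mice the log2 fold change was −0.84 (SE 0.699, edgeR adjusted p = 1.00).

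Slc4a1 encodes band 3, the anion exchanger that carries chloride and bicarbonate and anchors the membrane to its skeleton. The gene lies on chromosome 11, minus strand, at 102348824 to 102366203 and gave the most reads of the 8. It stood at 28.2, 21.2 and 31.6 CPM in PBS mice, 29.1, 6.60 and 15.3 CPM in EnzR EV mice, and 12.8, 27.7 and 9.43 CPM in EnzR EV + HDL NP mice. Each group given EVs had 1 mouse within the PBS range and 2 mice below it. The log2 fold change was −0.80 (SE 0.517) for EnzR EVs against PBS, −0.70 (SE 0.489) for EnzR EVs + HDL NPs against PBS and 0.11 (SE 0.515) between the groups given EVs, with edgeR adjusted p = 0.928, 1.00 and 0.933. The spread of its reads between mice of a group was 53.4 times the Poisson variance, and that of the other 7 genes, which have fewer reads, 2.22 to 6.72 times.

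Ank1, whose product ankyrin ties band 3 to spectrin, lies on chromosome 8, plus strand, at 22974844 to 23150497. Ank1 overlaps other annotated genes, among them Mir486 on its own strand and the antisense gene Gm15816, and the strand setting of the counting is not given in the sources used here, so reads of these genes may be counted with it. It stood at 4.40, 4.199 and 5.32 CPM in PBS mice, 7.13, 1.49 and 4.02 CPM in EnzR EV mice, and 3.04, 3.99 and 2.38 CPM in EnzR EV + HDL NP mice. All 3 mice with HDL NPs lay below all 3 PBS mice, and the log2 fold change was −0.57 (SE 0.445, edgeR adjusted p = 1.00). EnzR EV mice lay both above and below the PBS mice, with a log2 fold change of −0.40 (SE 0.485, edgeR adjusted p = 0.928). Between the groups given EVs it was −0.17 (SE 0.487, edgeR adjusted p = 0.881).

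Rhag encodes the Rh-associated glycoprotein, the partner that carries the Rh proteins to the red cell surface, and lies on chromosome 17, plus strand, at 40811126 to 40840754. Its levels were 1.41, 1.44 and 2.06 CPM in PBS mice, 1.10, 0.585 and 0.591 CPM in EnzR EV mice, and 0.957, 1.37 and 0.279 CPM in EnzR EV + HDL NP mice. All 3 mice with HDL NPs and mice 2 and 3 of the EnzR EV group lay below all 3 PBS mice. The EnzR EV value of 1.10 CPM rests on 2 reads, under the 3 reads that make 1.65 CPM in that library, so it cannot be placed below the PBS values (exact 95% Poisson interval 0.133 to 3.96 CPM). The log2 fold change was −1.34 (SE 0.599, edgeR unadjusted p = 0.0478, adjusted p = 0.928) for EnzR EVs against PBS. It was −0.91 (SE 0.515, edgeR adjusted p = 1.00) for EnzR EVs + HDL NPs against PBS and 0.43 (SE 0.607, edgeR adjusted p = 0.742) between the groups given EVs. A two-sided exact permutation test gave p = 0.1 for EnzR EVs + HDL NPs against PBS, the smallest p that 3 mice against 3 allow.

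Ermap encodes an erythroblast membrane protein of the immunoglobulin superfamily that carries a blood group antigen in humans, and lies on chromosome 4, minus strand, at 119175457 to 119190011. It stood at 5.81, 2.53 and 3.89 CPM in PBS mice, 4.39, 1.28 and 1.30 CPM in EnzR EV mice, and 3.72, 3.58 and 2.38 CPM in EnzR EV + HDL NP mice. The EnzR EV group held 2 mice below the 7 other mice and 1 mouse, from the smallest library, within the PBS range. The log2 fold change was −1.16 (SE 0.516, edgeR unadjusted p = 0.0479, adjusted p = 0.928) for EnzR EVs against PBS, with an unadjusted p of 0.0444 by DESeq2, and −0.29 (SE 0.445, edgeR adjusted p = 1.00) for EnzR EVs + HDL NPs against PBS. Between EnzR EVs + HDL NPs and EnzR EVs it was 0.86 (SE 0.510, edgeR adjusted p = 0.490), and with 1.96 SE on either side the interval ran from −0.13 to 1.86.

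Trim10, a tripartite motif protein with a part in terminal erythroid differentiation, lies on chromosome 17, plus strand, at 36869574 to 36877833. It stood at 0.704, 3.11 and 3.43 CPM in PBS mice, 4.94, 1.17 and 2.25 CPM in EnzR EV mice, and 1.63, 3.04 and 1.33 CPM in EnzR EV + HDL NP mice. Its lowest value, on 4 reads, was in mouse 1 of the PBS group and its highest, on 9 reads, in mouse 1 of the EnzR EV group. The log2 fold changes were −0.19 (SE 0.639), −0.35 (SE 0.581) and −0.16 (SE 0.647), with edgeR adjusted p = 0.971, 1.00 and 0.918. The mean CPM was higher with EnzR EVs than with PBS, 2.79 ± 1.94 against 2.41 ± 1.49 (SD, n = 3), opposite to the sign of the fit.

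Over the 8 genes, 7 had a lower fitted level in EnzR EV than in PBS mice, beside 53.5% of all genes tested, with a median log2 fold change of −0.60 against −0.03 over all genes. By mean CPM 6 were lower and 2, Epor and Trim10, higher, and by the fit 5 were lower and 3 higher without PBS mouse 2, PBS mouse 3 or EnzR EV mouse 2. At an unadjusted p under 0.05 by edgeR, 2 of the 8 were lower (Rhag and Ermap), where 1.92% of all genes were lower. This count was 0 of the 8 with RLE (1.72% of all genes) or upper quartile scaling (1.93%) and without PBS mouse 1 (3.44%), PBS mouse 3 (0.669%), EnzR EV mouse 2 (8.02%) or EnzR EV mouse 3 (1.13%). It was 1 of the 8 with DESeq2 (1.83%) and with replicates blocked by number (3.08%). It was 3 of the 8 with voom (1.98%), voom with sample weights (18.6%), scaling by library size only (2.46%) and without EnzR EV mouse 1 (2.19%). The groups did not overlap for 0 of the 8 once the Rhag value on 2 reads was read only as under the floor, and for 1 (Rhag, lower) with that value taken as it stands, where 4.52% of all genes were lower without overlap. In EnzR EV + HDL NP mice 7 of the 8 were lower than in PBS mice, beside 51.1% of all genes, with a median of −0.63 against −0.01. There, 0 of the 8 had an edgeR unadjusted p under 0.05, where 1.12% of all genes were lower at that p. The groups did not overlap for 2 of the 8 (Ank1 and Rhag, both lower), where 6.21% of all genes were lower without overlap. Both comparisons use the same 3 PBS mice, so these counts are not independent of each other. Between EnzR EVs + HDL NPs and EnzR EVs, 5 of the 8 were higher and 3 lower by the fit, beside 52.8% of all genes higher, with a median of 0.12 against 0.03. By mean CPM only Gata1, Ermap and Rhag were higher and 5 were lower, as Klf1 and Slc4a1 changed sign, so the tally gives no direction. The groups overlapped for all 8, where 8.99% of all genes were higher and 8.58% lower without overlap.

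**Figure D2:**
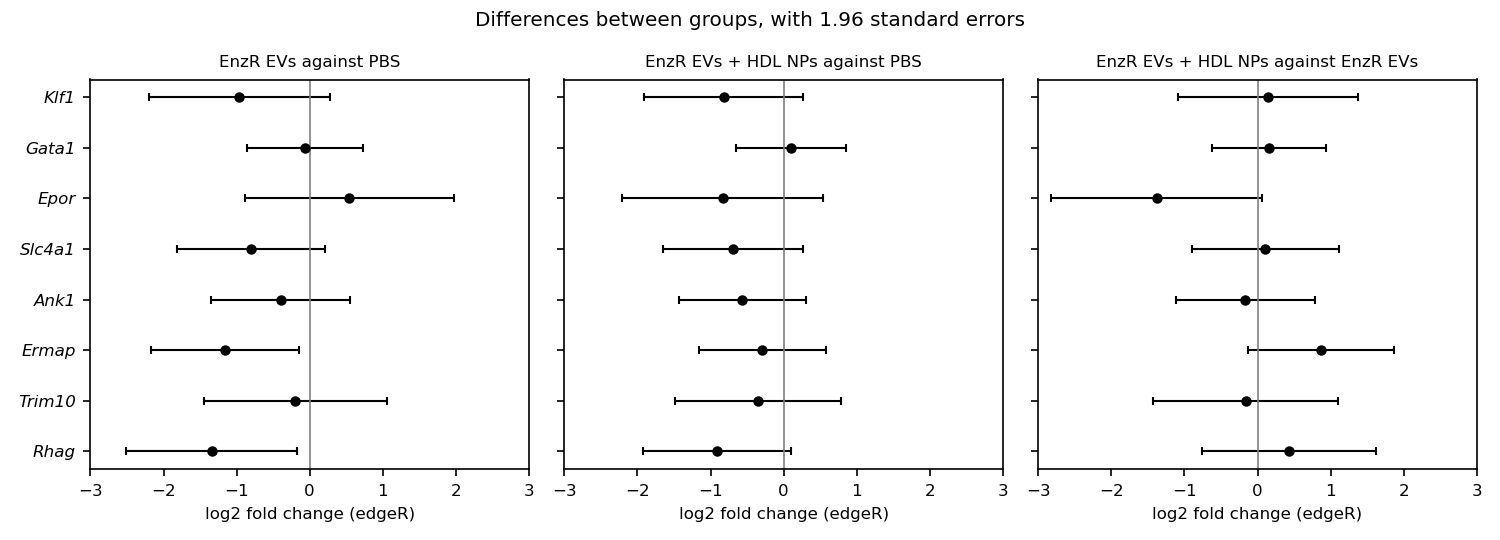
Log2 fold change of each of the 8 genes by edgeR in the 3 comparisons, with bars of 1.96 standard errors on either side and a line at 0. For EnzR EVs against PBS the bars of Ermap and Rhag lie below 0, though neither gene passed the adjusted threshold, and every other bar in the 3 panels crosses 0.

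Leaving out mouse 1 of the PBS and EnzR EV groups, the pair with the most Rn45s, moved the median for EnzR EVs against PBS from −0.60 to −1.01, with 7 of 8 genes lower. Then 3 of the 8 had an unadjusted p under 0.05 by edgeR and were lower, beside 4.37% of all genes, and again 0 passed the adjusted threshold. Without EnzR EV mouse 2 it was 0 of the 8 beside 8.02% of all genes. Single mice decided the size of this median: it was −1.06 without mouse 1 and −0.19 without mouse 2 of the EnzR EV group. For EnzR EVs + HDL NPs against PBS, leaving out mouse 2 of the group with HDL NPs, its highest in Slc4a1, Klf1 and Rhag, moved the median to −1.03, with 2 of the 8 lower at an edgeR unadjusted p under 0.05 beside 0.668% of all genes. Between the groups given EVs the median changed sign, to −0.33 without mouse 2 of the EnzR EV group and to −0.42 without mouse 2 of the group with HDL NPs.

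The 8 genes did not vary as a block. After centring the log2 CPM of each gene on its mean over the 9 mice, Ank1 lay closest to the mean profile of the 8, at a root mean square difference of 0.21, followed by Slc4a1 at 0.31, Klf1 at 0.34, Rhag at 0.40 and Ermap at 0.49. Trim10 at 0.61, Epor at 0.73 and Gata1 at 0.89 lay farther away than the median of all tested genes, 0.60. These distances are descriptions over 9 libraries, and each gene is part of the mean profile it was set against. In the mean profile, mouse 2 of the EnzR EV group and mouse 3 of the EnzR EV + HDL NP group were the lowest, and mouse 3 of the PBS group and mouse 1 of the EnzR EV group the highest.

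**Figure D3:**
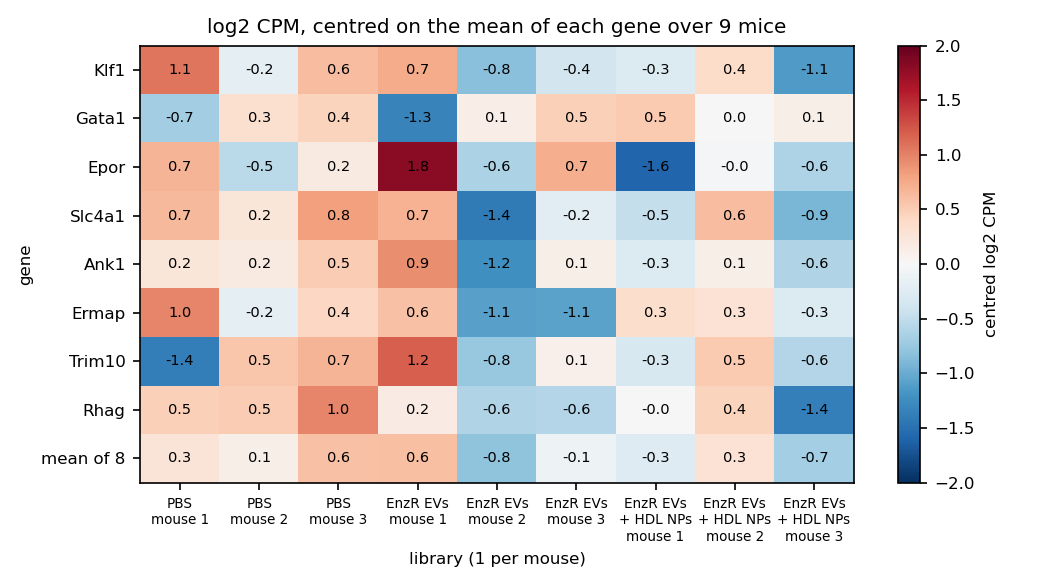
Centred log2 CPM of the 8 genes and of their mean (rows) in the 9 libraries (columns), with blue for values below and red for values above the mean of the gene. Slc4a1, Ank1, Ermap and Klf1 are low in mouse 2 of the EnzR EV group, while Gata1 is low in mouse 1 of the PBS and EnzR EV groups and Trim10 lowest of all in mouse 1 of the PBS group.

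Of the 12545 other tested genes, the 10 whose centred profile lay closest to the mean of the 8 were Tmcc2, Grap, Paqr9, Batf3, Car2, Vopp1, Erbb2, Tgif2, Fech and Wrb, at root mean square differences of 0.21 to 0.28 over 9 libraries. Tmcc2, a transmembrane protein gene on the list of other erythroid membrane genes, stood at 18.1, 11.7 and 14.8 CPM in PBS mice, 14.3, 6.17 and 10.2 CPM in EnzR EV mice, and 11.1, 13.8 and 8.38 CPM in EnzR EV + HDL NP mice. Its lowest value was that of mouse 2 of the EnzR EV group, the lowest mouse also for Slc4a1, Ank1 and Ermap. That mouse was also the lowest in the mean profile by which Tmcc2 was picked, so this likeness follows from the choice. Car2, the carbonic anhydrase gene, and Fech, which inserts iron into heme, are on the list of hemoglobin and heme genes.

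The ratio of each gene to Klf1 within a library compares the erythroid genes with each other and does not depend on the scaling between libraries. The log2 ratio of Epor to Klf1 was −0.52, −0.53 and −0.60 in PBS mice and 0.92, 0.11 and 1.04 in EnzR EV mice, without overlap. It was −1.75, −0.55 and 0.49 in EnzR EV + HDL NP mice. The difference of 1.24 between EnzR EVs and PBS had p = 0.1 by a two-sided exact permutation test (n = 3 per group), the smallest the design allows, and 0.7 after adjustment over 21 such tests. For Ermap the log2 ratio to Klf1 was higher by 0.94 with EnzR EVs + HDL NPs than with EnzR EVs, also without overlap. Its exact permutation p was 0.1, and 0.7 after the same adjustment. In the other 19 tests the groups overlapped. At an exact permutation p of 0.1 each, some of 21 ratios may separate without any difference between groups. Klf1 gave 4 to 35 reads per library, and no interval for counting error was computed for the ratios. For Ermap the nearest values were 1.09 in mouse 2 with HDL NPs and 0.97 in EnzR EV mouse 2. The log2 ratio of Slc4a1 to Klf1 ranged from 3.28 to 4.24 over the 9 mice.

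Promoter sequences were matched for 6 of the 8 genes, from RefSeq on GRCm38.p6, the assembly that mm10 names, and were searched on both strands for the GATA motifs AGATAA and TGATAA and for the CACCC box CCACCC. In the 250 bases before the start, 5 of 6 held a GATA motif, 5 of 6 a CACCC box and 4 of 6 both, beside 16.6%, 28.1% and 3.45% of 32851 promoters of the same length. TGATAA was added to the search after the sequences were seen, and AGATAA alone was in 2 of 6 (Epor and Trim10), beside 9.99% of all promoters. The wider KLF motif CCNCNCCC was in 2 of 6 (Epor and Gata1), beside 45.9%. The promoters of Klf1 and Gata1 are shown because these are the regulators themselves, and those of Rhag and Ermap because these genes had the most negative log2 fold changes for EnzR EVs against PBS. Each is printed 5′ to 3′ on the strand of its gene and ends where the gene model or the RefSeq start begins, with capitals for the motifs in either orientation (TTATCA is TGATAA and GGGTGG is CCACCC read on the other strand).
Klf1, chr8:84901732-84901927, plus strand: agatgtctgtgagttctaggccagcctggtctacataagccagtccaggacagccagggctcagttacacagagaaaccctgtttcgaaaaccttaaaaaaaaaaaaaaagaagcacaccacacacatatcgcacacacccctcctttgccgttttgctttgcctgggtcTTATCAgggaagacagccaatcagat
Gata1, chrX:7967911-7968160, minus strand: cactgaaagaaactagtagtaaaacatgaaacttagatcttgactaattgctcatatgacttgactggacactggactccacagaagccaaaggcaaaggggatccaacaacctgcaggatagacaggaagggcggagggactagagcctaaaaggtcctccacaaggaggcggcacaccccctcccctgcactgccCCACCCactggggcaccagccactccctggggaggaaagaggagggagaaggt
Rhag, chr17:40810899-40811125, plus strand: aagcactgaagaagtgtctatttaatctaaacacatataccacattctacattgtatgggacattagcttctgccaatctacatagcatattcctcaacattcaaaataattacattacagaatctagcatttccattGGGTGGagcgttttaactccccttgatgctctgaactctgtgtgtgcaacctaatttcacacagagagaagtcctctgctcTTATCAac
Ermap, chr4:119190012-119190245, minus strand: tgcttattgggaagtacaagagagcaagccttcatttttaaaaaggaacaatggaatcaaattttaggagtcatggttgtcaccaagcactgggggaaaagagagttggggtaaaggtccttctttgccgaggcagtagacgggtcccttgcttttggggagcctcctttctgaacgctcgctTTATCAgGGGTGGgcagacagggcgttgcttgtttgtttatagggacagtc

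In Klf1 the GATA motif starts 80 bases upstream of the RefSeq start, in Rhag 31 bases and in Ermap 67 bases upstream. The CACCC box lies 53 bases upstream of the start in Gata1, 112 bases in Rhag and 60 bases in Ermap, next to its GATA motif. The Gata1 window lies within the longer GENCODE model of the gene. Epor held TTATCT 54 bases and CCACCC 151 and 122 bases upstream, and Trim10 held TTATCT 163 bases and GGGTGG 71 bases upstream. These are matches of letters and not sites of binding.

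Other erythroid membrane genes, a hand-written list of spectrin, blood group and transporter genes, had 19 of 20 members tested. Against PBS, 16 of the 19 were lower with EnzR EVs, 7 of them at an unadjusted p under 0.05 by edgeR (beside 1.92% of all genes) and 0 past the adjusted threshold, with a median log2 fold change of −0.68. Voom with sample weights called 3 of the 19, beside 15.9% of all genes, and 1 between the groups given EVs, beside 5.20%. Without mouse 2 of the EnzR EV group only 1 of the 19 was lower at that unadjusted p, beside 8.02% of all genes, and without PBS mouse 3 it was 2, beside 0.669%. The gene with the smallest p was Tspan33, a tetraspanin of erythroid progenitors, at 2.64, 2.30 and 2.52 CPM in PBS mice, 1.65, 0.745 and 0.355 CPM in EnzR EV mice, and 1.52, 1.61 and 0.978 CPM in EnzR EV + HDL NP mice. The EnzR EV values of mice 1 and 3 rest on 3 reads each, and in mouse 1 the interval of 3 reads, 0.339 to 4.81 CPM as for Gata1, covers the PBS values. The log2 fold change for EnzR EVs against PBS was −1.78 (SE 0.493, edgeR unadjusted p = 0.00438, adjusted p = 0.928). Spna1, the alpha-spectrin gene, gave −1.58 (SE 0.498, edgeR adjusted p = 0.928) and Epb4.2, for protein 4.2, −1.27 (SE 0.490, edgeR adjusted p = 0.928).

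With EnzR EVs + HDL NPs against PBS, 17 of the 19 membrane genes were lower with a median log2 fold change of −0.42, and 0 had an edgeR unadjusted p under 0.05. The median was −0.23 without PBS mouse 3 and −0.19 without mouse 3 of the group with HDL NPs, each with 13 of the 19 lower. It was −0.65 without mouse 2 of that group, where 2 of the 19 were lower at that p, beside 0.668% of all genes. Leaving out mouse 1 of that group also gave 2 of the 19, beside 1.32%. In the main analysis the smallest p was 0.0583, for the urea transporter gene Slc14a1, at a log2 fold change of −0.67 (SE 0.317, edgeR adjusted p = 1.00). Between EnzR EVs + HDL NPs and EnzR EVs, 15 of the 19 were higher with a median of 0.33, and 2 of these had an unadjusted p under 0.05 by edgeR, beside 3.58% of all genes. The median was 0.18 without EnzR EV mouse 2 and 0.16 without mouse 2 of the group with HDL NPs. Spnb1, the beta-spectrin gene, had the smallest p there, at a log2 fold change of 0.59 (SE 0.221, edgeR unadjusted p = 0.0226, adjusted p = 0.461).

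Among 18 other erythroid regulators and genes of Epor signalling, 10 were lower with EnzR EVs than with PBS, beside 53.5% of all genes. The median log2 fold change was −0.02, and 0 passed the adjusted threshold in any comparison by edgeR or DESeq2. In PBS mice the list summed to 1019 to 1137 CPM, beside 39.8 to 55.7 CPM for the 8 genes, with Nfe2 alone at a mean of 247 CPM. The list is therefore no measure of erythroid cells alone, and the part of other cells in it was not tested. Voom with sample weights called 4 of the 18 for EnzR EVs against PBS, beside 15.9% of all genes, and 1 for EnzR EVs + HDL NPs against EnzR EVs, beside 5.20%. Hemgn, an erythroid nuclear protein gene, had the smallest p for EnzR EVs against PBS, at −0.98 (SE 0.376, edgeR unadjusted p = 0.0257, adjusted p = 0.928). Tal1 and Gfi1b, which act in complexes with Gata1, and Nfe2, a factor of the globin locus, gave smaller values, Tal1 at −0.00087 (SE 0.305), Gfi1b at 0.18 (SE 0.542) and Nfe2 at 0.14 (SE 0.195), with edgeR adjusted p = 1.00, 0.968 and 0.932. Trim58, a ubiquitin ligase of late erythroblasts, gave −0.68 (SE 0.641, edgeR adjusted p = 0.928). Tfrc, the transferrin receptor, had the smallest p for EnzR EVs + HDL NPs against PBS, at −0.44 (SE 0.187, edgeR unadjusted p = 0.0392, adjusted p = 1.00). Bcl2l1, a survival gene induced through Epor and Stat5, had the smallest p between EnzR EVs + HDL NPs and EnzR EVs, at −1.01 (SE 0.354, edgeR unadjusted p = 0.0166, adjusted p = 0.461). Like Epor, Bcl2l1 had its highest value in mouse 1 of the EnzR EV group, 76.8 CPM, beside 27.4 and 47.9 CPM in the other EnzR EV mice.

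Of 13 hemoglobin and heme genes, the alpha-globin genes Hba-a1 and Hba-a2 and the beta-globin genes Hbb-b1 and Hbb-b2 were listed at 0 in all libraries, while the beta-globin entry Beta-s held 45.8, 186 and 194 CPM in PBS mice. It held 13.2, 105 and 30.9 CPM in EnzR EV mice and 64.7, 277 and 27.8 CPM in EnzR EV + HDL NP mice. Why the alpha-globin rows are at 0 was not tested, and those rows say nothing about globin levels. Of the 9 tested genes of the list, 7 were lower with EnzR EVs than with PBS, beside 53.5% of all genes. At an edgeR unadjusted p under 0.05, 2 of these were lower, beside 1.92% of all genes, and 0 passed the adjusted threshold. Alas2, the first enzyme of erythroid heme synthesis, had the smallest p, at a log2 fold change of −1.25 (SE 0.516, edgeR unadjusted p = 0.0342, adjusted p = 0.928). In EnzR EV + HDL NP mice 8 of the 9 were lower than in PBS mice, beside 51.1% of all genes. Car2 had the smallest p (0.0742 by edgeR, unadjusted). Against EnzR EVs, 6 of the 9 were higher with EnzR EVs + HDL NPs, beside 52.8% of all genes. Slc25a38, a mitochondrial carrier gene of heme synthesis, had the smallest p in that comparison, at −0.73 (SE 0.322, edgeR unadjusted p = 0.0465, adjusted p = 0.461).

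Markers of cells that lie beside erythroblasts or share their factors were set next to these values. Of 13 genes of erythroblastic island macrophages, 12 were lower with EnzR EVs than with PBS, 5 of them at an edgeR unadjusted p under 0.05 beside 1.92% of all genes, and 13 of 13 were lower with EnzR EVs + HDL NPs, 2 of them at that p beside 1.12%. Without PBS mouse 3, 1 of the 13 was lower at that p with EnzR EVs (beside 0.669% of all genes) and 0 with EnzR EVs + HDL NPs (beside 1.17%), where 8 of the 13 were lower and the median moved from −0.42 to −0.04. Without PBS mouse 1 these counts were 8 (beside 3.44%) and 6 (beside 0.806%). For EnzR EVs the count was 8 without EnzR EV mouse 2 (beside 8.02%) and 2 without EnzR EV mouse 3 (beside 1.13%). For EnzR EVs + HDL NPs it was 1 without mouse 1 (beside 1.32%) or mouse 2 (beside 0.668%) of that group. Without mouse 1 of both the PBS and EnzR EV groups the counts were 9 (beside 4.37%) and 8 (beside 1.78%). None of the 13 passed the adjusted threshold in the main analysis, while voom with sample weights called 8 of them for EnzR EVs against PBS, beside 15.9% of all genes. Their summed level was 1102 to 1978 CPM in PBS mice, 1016 to 1211 CPM in EnzR EV mice and 1198 to 1296 CPM in EnzR EV + HDL NP mice, and all 13 passed the filter on low counts. Cd5l, a macrophage scavenger protein gene, had the smallest p in both comparisons with PBS, at log2 fold changes of −1.07 (SE 0.273, edgeR adjusted p = 0.928) and −0.82 (SE 0.265, edgeR adjusted p = 1.00). Vcam1, an adhesion molecule by which these macrophages hold erythroblasts, gave −0.71 (SE 0.245, edgeR adjusted p = 0.928) for EnzR EVs against PBS. The part of island macrophages in the erythroid values was not tested.

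Of 11 megakaryocyte genes tested, 9 were lower with EnzR EVs and 10 with EnzR EVs + HDL NPs than with PBS. The shares of all genes lower were 53.5% and 51.1%, and 0 of the 11 had an edgeR unadjusted p under 0.05 in either comparison. Pf4 gave log2 fold changes of −0.15 (SE 0.574) and −0.79 (SE 0.557) and Itga2b −0.33 (SE 0.365) and −0.16 (SE 0.356). None of these 4 values had an edgeR adjusted p below 0.928. Of 16 eosinophil, basophil and mast cell genes, 13 were lower with EnzR EVs than with PBS, beside 53.5% of all genes. Of these 13, 0 had an edgeR unadjusted p under 0.05, and among them was Mcpt8, a basophil protease gene, at −0.77 (SE 0.558, edgeR adjusted p = 0.928). The other 3 were higher, among them Prg2 at 0.35 (SE 0.325, edgeR adjusted p = 0.928). Hdc, also higher, had the smallest p of the list, at 0.45 (SE 0.171, edgeR unadjusted p = 0.0233, adjusted p = 0.928). Of 15 CD11b+ myeloid genes, 10 were lower and 5 higher with EnzR EVs than with PBS, beside 53.5% of all genes lower, 0 of them at an edgeR unadjusted p under 0.05. With EnzR EVs + HDL NPs 7 were lower and 8 higher than with PBS. Their summed level varied widely within groups, from 49591 to 108377 CPM in PBS mice, 26640 to 117167 CPM in EnzR EV mice and 73187 to 139717 CPM in EnzR EV + HDL NP mice. Mouse 2 of the EnzR EV group had the highest myeloid sum of its group and the lowest sum of the 8 erythroid genes of all mice, while mouse 2 of the group with HDL NPs had the highest myeloid sum of all mice and the highest erythroid sum of its group. Of 5 lymphoid genes tested, 4 were lower with EnzR EVs and 5 with EnzR EVs + HDL NPs than with PBS. Over all genes the shares were 53.5% and 51.1%. At an edgeR unadjusted p under 0.05, 1 of the 5 was lower with EnzR EVs, beside 1.92% of all genes, and 0 with EnzR EVs + HDL NPs, beside 1.12%.

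**Figure D4:**
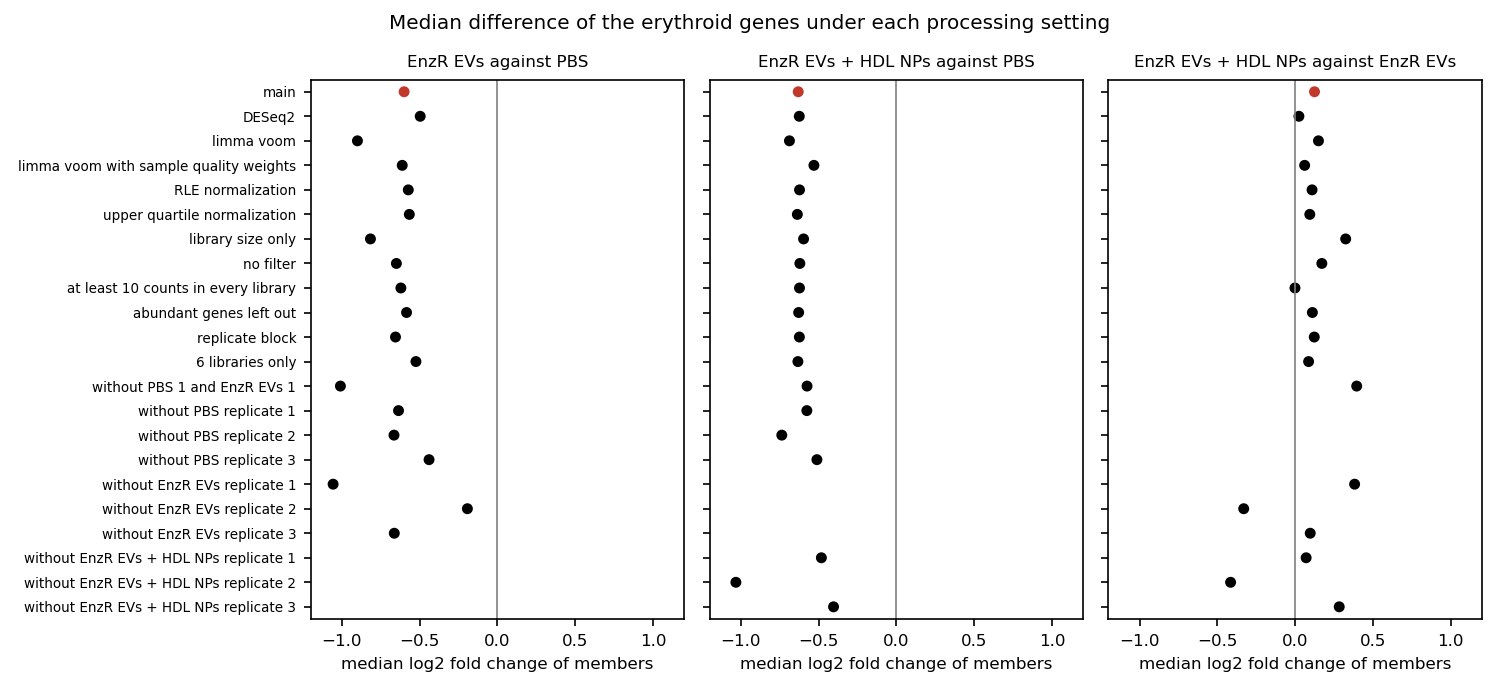
Median log2 fold change of the 8 genes (x axis) under the main analysis (red) and each alternative (black), 1 panel per comparison; settings that leave out a mouse of a group outside the comparison have no point there. The median stays below 0 in both comparisons with PBS and lies on both sides of 0 between the groups given EnzR EVs.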

How the data were processed

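The authors deposited raw counts of reads per gene, without normalization: stranded total RNA depleted of rRNA was sequenced as single-end reads, adapters were trimmed (cutadapt 1.13), poor-quality and rRNA reads were removed, and the rest were aligned to mm10 with STAR and counted with HTSeq 0.6.1p1 on a UCSC annotation. Rn45s reads remained in the counts. RNA extraction is given as Trizol in the labels and as a column kit in the methods. Columns used all map to a sample by their labels.

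Counts of all 9 libraries were fitted in R 4.3.3 with edgeR 4.0.16 (TMM factors, default filter on low counts, robust quasi-likelihood fit, 1 coefficient per group, Benjamini-Hochberg adjustment over 12553 genes, threshold 0.05), after the fit was tested on simulated data. CPM are scaled by TMM factors, and log2 CPM have a prior count of 2. Ratios to Klf1 have a pseudocount of 0.5 counts. Exact permutation tests are two-sided. DESeq2 1.42.0, limma 3.58.1 (voom), other scalings and filters, and each mouse left out were alternatives. Intervals and the floor of 3 counts cover counting error only, since reads carry no molecular identifiers. Gene positions and exon lengths came from GENCODE M21 on GRCm38. PBS mice 2 and 3, the closest pair, were no duplicates (chi-square of 4.65 for each gene on average).

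The 8 genes and all lists were chosen with earlier results of these data known, and the entries Spna1, Spnb1 and Beta-s and the motif TGATAA were added after the files were seen, as were the directions by mean CPM and the reading of values under the floor. Named beside the 8 were fixed marker genes, the gene of smallest p per list and comparison (some in the closing section), and the 10 genes of most similar profile. One gene of that rule is not reported here. The study's replicate numbers were checked for pairing. Deviations from group means of same-numbered libraries correlated at 0.473, 0.492 and 0.131 between PBS and EnzR EVs. In the other comparisons the range was −0.175 to 0.293. Different-numbered libraries of different groups correlated at −0.533 to 0.429, and PBS mouse 3 lay nearer EnzR EV mouse 2 (0.429) than EnzR EV mouse 3. The value of 0.473 joins the libraries with the most Rn45s. These values do not show that the numbers pair mice, and the numbers served as a block only in an alternative.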

Additional observations from a re-analysis of the deposited data

How the results depend on the processing

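Under the 18 alternatives run for each of the 3 comparisons, 0 of the erythroid genes tested passed the adjusted threshold. All 8 were tested in each, except that the filter of at least 10 counts in every library left 2, Slc4a1 and Ank1. Of 522 alternative values, 484 kept their direction and side of the threshold, 37 reversed and 1 median moved by more than the spread. The smallest adjusted p of any of the 8 was 0.0567, for Ermap between EnzR EVs and PBS under limma voom with sample quality weights, a setting that called 1990 genes (15.9%) in that comparison.

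For EnzR EVs against PBS, Gata1 reversed to 0.020 with the sample weights. For EnzR EVs + HDL NPs against PBS, Gata1 and Ermap reversed to −0.17 and 0.041 with the weights and to −0.15 and 0.012 without mouse 1 of the PBS and EnzR EV groups. For EnzR EVs + HDL NPs against EnzR EVs, Slc4a1 reversed to −0.0027 with DESeq2, Gata1 to −0.19 with the weights and to −0.067 without that pair of mice. Ank1 and Trim10 reversed there to 0.30 and 0.11 with voom, to 0.068 and 0.057 with library size only, and to 0.28 and 0.31 without the pair. The median of the genes with at least 10 counts in every library, Slc4a1 and Ank1, was −0.0016.

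Leaving out each mouse in turn, the medians ranged from −1.06 to −0.19 (EnzR EVs against PBS), −1.03 to −0.40 (EnzR EVs + HDL NPs against PBS) and −0.42 to 0.38 (EnzR EVs + HDL NPs against EnzR EVs). For single genes whose sign turned, the ranges were −0.35 to 0.15 for Gata1, −0.66 to 0.31 for Trim10 and −0.83 to 0.17 for Ank1 in the first comparison. They were −0.15 to 0.29 for Gata1 and −0.56 to 0.0088 for Ermap in the second. In the third they were −0.072 to 0.45 for Gata1, −0.73 to 0.26 for Ank1, −0.67 to 0.29 for Trim10, −0.40 to 0.47 for Klf1, −0.52 to 0.64 for Slc4a1 and −0.074 to 0.81 for Rhag. The cause was not tested.

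With the replicate number as a block, 0 of the 8 were called and the medians were −0.66, −0.62 and 0.12, so that the block changed no call. Between EnzR EVs and PBS, the EnzR EV mouse was the lower in 3 of 3 same-numbered pairs for Klf1, Rhag and Ermap. It was the lower in 2 pairs for Gata1, Slc4a1, Ank1 and Trim10, and in 1 pair for Epor. The Rhag value of EnzR EV mouse 1 rests on 2 reads, under the floor. Its Klf1 value rests on 4 reads (exact 95% Poisson interval 0.598 to 5.62 CPM) and its Ermap value on 8 reads (1.90 to 8.65 CPM). These intervals cover the values of PBS mouse 1, 2.82 and 5.81 CPM, so the order in that pair is not known for these genes. The share of all genes that were lower in 3 of 3 pairs was not computed, so no direction is read from these counts. Library size only moved the median of all genes to −0.18, 0.05 and 0.24, and that of the 8 genes to −0.82, −0.60 and 0.32. The 8 genes had 2 to 553 reads per gene and library, and SEs from 0.384 to 0.737 over the 3 comparisons. The size of difference that 3 mice per group could detect was not tested.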

Other observations

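In the lists of other cell types, 0 genes passed the adjusted threshold by edgeR or DESeq2. The genes of smallest edgeR p for EnzR EVs against PBS included Gp9 among megakaryocyte genes (unadjusted p = 0.0703), Csf1r among myeloid genes (unadjusted p = 0.145) and Cd79b among lymphoid genes (unadjusted p = 0.0474). Among eosinophil, basophil and mast cell genes it was Hdc, the histidine decarboxylase gene (log2 fold change 0.45, edgeR unadjusted p = 0.0233). For EnzR EVs + HDL NPs against EnzR EVs, Mpo, the myeloperoxidase gene, gave −0.96 (edgeR unadjusted p = 0.0131) and Nkg7, a gene of cytotoxic lymphocytes, −1.14 (edgeR unadjusted p = 0.00348). C1qb, a complement gene of macrophages, gave −1.42 (edgeR unadjusted p = 0.00848). It stood at 191 CPM in mouse 1 of the EnzR EV group, beside 45.9 and 66.9 CPM in the other EnzR EV mice. C1qb went against most of its list: of the 13 island macrophage genes, 9 were higher and 4 lower in this comparison, with a median of 0.25. Gp1bb had the smallest p among megakaryocyte genes there (edgeR unadjusted p = 0.103) and Hdc among eosinophil, basophil and mast cell genes (edgeR unadjusted p = 0.0541). For EnzR EVs + HDL NPs against PBS the genes of smallest edgeR p in the same lists were Treml1 (unadjusted p = 0.143), Prss34 (unadjusted p = 0.0827), Elane (unadjusted p = 0.0792) and Nkg7 (unadjusted p = 0.0731). Hdc stood at 324, 416 and 397 CPM in PBS mice and at 486, 546 and 524 CPM in EnzR EV mice, beside 339, 453 and 413 CPM in EnzR EV + HDL NP mice. In PBS mice the mean of Hdc was 379 CPM, beside 29.5 CPM for Mcpt8 and 11.7 CPM for Cpa3 of the same list. Which cells carried Hdc was not tested.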
